A study of Homo sapiens with 4 samples.

Results

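Of the 13228 regions on chromosomes 1 to 22 and X where both replicates of the FOXC1 ChIP-seq had a peak, 208 (1.57%) had their summit in an exon of a protein-coding gene and more than 2 kb from every annotated start site. Overlapping peaks (1 bp or more in common) were merged, and the midpoint between both replicates' summits was taken as the position of the region. An exonic summit was one inside the coding sequence or an untranslated region (UTR) of any annotated transcript. By this rule 153 summits lay in a 3′ UTR, 48 in coding sequence and 7 in a 5′ UTR. No measured value was used to choose them beyond the presence of a peak in each replicate.

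J82 is an established human bladder cancer cell line, and it was cultured with no drug or genetic change named in the labels. FOXC1 was immunoprecipitated with the antibody D8A6 in 2 biological replicates, each called against an input library of its own, with single-end reads of 75 bp mapped to hg19. No second condition of the ChIP was analysed here, and all values below describe 1 line in 1 state. No library without FOXC1 was analysed here, so signal that the antibody would give without its target was not measured.

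FOXC1 belongs to the forkhead family, whose DNA-binding domain contacts a short AT-rich word. Forkhead factors are mostly studied at promoters and at distal enhancers in introns and between genes. Exons differ from those places because their DNA also specifies a protein or the UTRs of a messenger RNA, which in a 3′ UTR carry sites that govern RNA stability and translation. The base composition of coding sequence is set partly by codons, and in-frame stop codons such as TAA are absent from it.

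The sequences shown first are from 3′ UTR regions among the 11 strongest exonic regions. A further set was chosen after the values were seen because it shows the words inside codons. The forkhead word searched was RTAAAYA, in which R stands for either purine and Y for either pyrimidine, on both strands within 50 bp of the summit. Capitals mark the word, and each line runs 5′ to 3′ on the strand that reads it, on hg19. DCBLD1 was the strongest exonic region that held the word, and CDC5L, GNAI1 and SLC1A2 were further 3′ UTR regions among the first 11, while HECTD2, TMEM167B and MME had the word wholly within coding sequence.
DCBLD1, 3′ UTR, chr6:117870194-117870220, minus strand: taattgctaaATAAACAaccaccctgg
CDC5L, 3′ UTR, chr6:44414555-44414581, minus strand: atcatttaaaATAAACAactgaaaaac
GNAI1, 3′ UTR, chr7:79848212-79848238, plus strand: tttcagcaaaGTAAACAgcactcccca
SLC1A2, 3′ UTR, chr11:35282317-35282343, plus strand: aacagattaaGTAAACAtagaaatata
HECTD2, coding, chr10:93253170-93253196, minus strand: cttgtgatatGTAAACAtgcctaaaaa
TMEM167B, coding, chr1:109637098-109637124, minus strand: aattcattttATAAACAggacgtaaaa
MME, coding, chr3:154866390-154866416, plus strand: ttcagccaaaGTAAACAactgaagaag

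Other words were also searched at the summits. The AP-1 word, bound by dimers of FOS and JUN proteins, was TGACTCA or TGAGTCA. An extended forkhead element, which begins with CCAA and ends in a degenerate core like that of the forkhead word, was searched as well, and it can contain the forkhead word. The ZFYVE28 and USO1 lines show the AP-1 word, and the KLF6, COQ2 and 5′ UTR lines show the extended element, again in capitals.
ZFYVE28, 3′ UTR, chr4:2331966-2331992, plus strand: tgtagatgggTGAGTCAtagggtaatg
USO1, coding, chr4:76722312-76722338, plus strand: gacaatattgTGACTCActacaaaaat
KLF6, 3′ UTR, chr10:3818712-3818739, plus strand: cccttcccCCAAAAAAAACAaccagact
COQ2, coding, chr4:84188894-84188921, plus strand: acttaagaCCAATCAAAACAtcatctct
ENSG00000285471, 5′ UTR, chr17:5740524-5740551, plus strand: agtaatgaCCAAGGTAAACAaggacctg

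The replicates listed 22447 and 41832 peaks. The reads over each summit were solved from the fold enrichment and the −log10 p of the peak. The median over all listed peaks was 18 reads in replicate 1 and 23 in replicate 2. At the exonic summits the medians were 23 and 42 reads, with ranges of 12 to 177 and 12 to 286. With so few reads, counting error is large for the weaker exonic peaks.

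Fold enrichment, the ChIP pileup at the summit over the local background with 1 added to each, had a median of 3.67 in replicate 1 (quartiles 2.85 and 5.22) and 6.10 in replicate 2 (quartiles 4.02 and 9.62). The mean of these medians was 4.88 ± 1.72 (SD, n = 2). Intronic shared regions had medians of 3.84 and 6.81, so the exonic median was the lower one in each replicate, and this difference was not tested. Coding regions had medians of 3.72 and 6.31, 3′ UTR regions of 3.65 and 5.95, and the 7 5′ UTR regions of 3.71 and 8.25. Replicate 2 was higher in 187 of the 208 exonic regions (89.9%), with a median ratio of 1.71, compared with 91.9% of all shared regions. The log2 ratio of reads between replicates had an SD of 0.46 across the exonic regions, and counting error alone would give 0.38. Spearman's rho of fold enrichment between replicates was 0.729 over the 208 regions, a description of regions that share both libraries. The replicates placed an exonic summit a median of 35 bp from each other, and within 100 bp in 185 of the 208 regions.

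**Figure D1:**
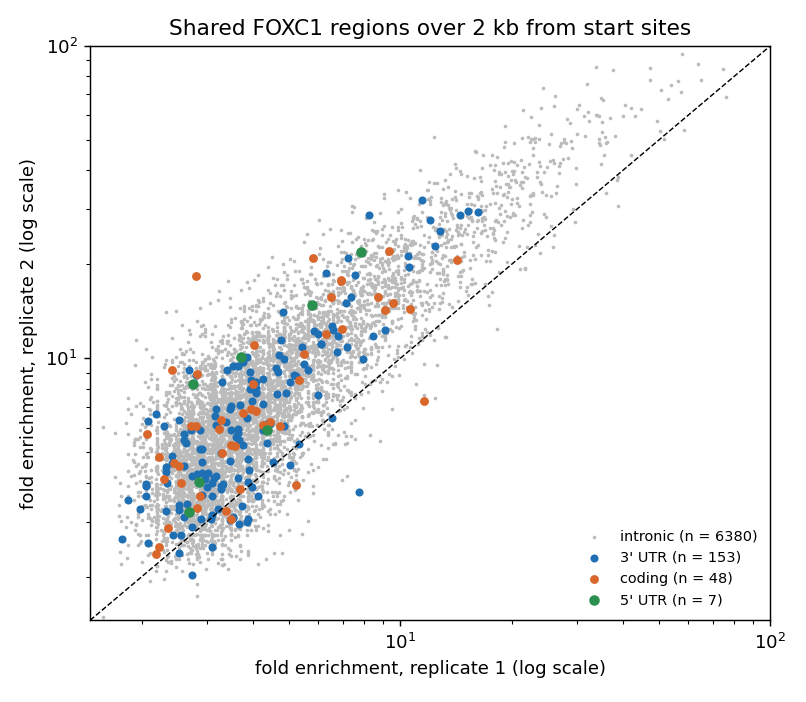
Fold enrichment of shared regions more than 2 kb from start sites in replicate 1 (horizontal, log scale) and replicate 2 (vertical, log scale), with 1 point per region and the dashed line marking equal values. The 153 3′ UTR (blue), 48 coding (orange) and 7 5′ UTR (green) regions lie within the cloud of 6380 intronic regions (grey), mostly above the line, and none reaches its upper right end.

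The share of exonic regions at the highest ranks depended on the ranking. When all shared regions were ranked by the lower of their fold enrichments in the replicates, exonic regions made up 1 of the first 500 (0.200%, 95% Wilson interval 0.0353 to 1.12%). They were 7 of the 500 regions at ranks 501 to 1000 (1.40%), 13 of 1000 at ranks 1001 to 2000 (1.30%) and 47 of 3000 at ranks 2001 to 5000 (1.57%). Beyond rank 5000 they were 140 of 8228 (1.70%, interval 1.44 to 2.004%). By this ranking the interval of the first 500 ended below that of the weakest regions. The share of the first 500 was again 0.200% when replicate 1 alone set the ranks, and 0.400% (0.110 to 1.447%) with the mean of the replicates or the lower −log10 p. With replicate 2 alone it was 1% (0.428 to 2.32%). The intervals of these last 3 rankings overlapped the interval given above for the weakest regions, only barely with the mean or the lower −log10 p. That interval of the weakest regions was computed under the first ranking alone, so the overlap does not compare like sets. The 1 exonic region of the first 500 was that of DCBLD1, at rank 462. No coding summit was among them (0 of 500, interval up to 0.762%). The highest values in an exonic region were 16.3 in replicate 1 and 32.1 in replicate 2, while intronic regions reached 76.0 and 94.3. Non-coding exons, which were not counted as members, also had 1 of the first 500. The interval covers counting of regions only, and the rank bins were chosen after the values were seen.

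The methods of the study name a −log10 q of 5 as a limit for H3K27ac peaks, not for FOXC1, and it served here as a round limit. It was met in both replicates by 102 of the 208 exonic regions (49.0%, 95% Wilson interval 42.3 to 55.8%), against 50.7% of all shared regions, so the exonic share was near the background. Replicate 1 met it in 104 exonic regions and replicate 2 in 171. In 69 regions replicate 2 alone met it, in 2 replicate 1 alone, and in 35 neither did. Of all 13228 shared regions, 6843 met it in replicate 1, 11405 in replicate 2 and 1691 in neither. Both replicates had a fold enrichment of at least 5 in 53 exonic regions (25.5%) and of at least 10 in 11 (5.29%). These shares were not computed over all shared regions, but ranks by the lower fold enrichment bracket the second. SLC1A2, with a lower value of 10.5, was rank 11 of the 208 and rank 1063 of the 13228. HECTD2, with 9.54, was rank 12 and rank 1273. A larger share of all shared regions than of exonic ones thus reached 10 in both replicates, and this difference was not tested.

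The 20 strongest exonic regions, ranked by the lower of the replicates, comprised 13 in 3′ UTRs, 6 in coding sequence and 1 in a 5′ UTR. All 20 were higher in replicate 2, as were 91.9% of all shared regions. All 20 also met the q limit in both replicates, which is no separate result because the ranking uses the same pileup and background. The forkhead word was at the summit of 12 of them, the AP-1 word of 4, the extended element of 2 and none of these words of 6. Over all shared regions these shares were 48.6%, 16.6%, 7.24% and 38.3%, and 20 regions are too few to tell a difference from them.

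The 3′ UTR regions among the 20 are given below by gene, in an order that was not tested for any shared function. DCBLD1, a membrane protein with a discoidin domain, reached 16.3 in replicate 1 and 29.5 in replicate 2, from 83 and 227 reads. Its region, chr6:117869642-117870631, covered part of exon 15 of 15, and its summit lay 591 bp past the stop codon in 1 of the 4 transcripts that span it. GNAI1 encodes an inhibitory G protein alpha subunit. Its region, chr7:79847909-79848534, had 12.05 and 27.7, and it was exonic in all 11 transcripts over the summit. SLC1A2, a glutamate transporter, had 10.5 and 21.2 at chr11:35281975-35282709, with the summit 96 bp past the stop codon of a 3′ UTR of 9689 bp. SLA, an adaptor related in structure to Src, had 15.3 and 29.7, and PDE7A, a cyclic AMP phosphodiesterase, had 10.6 and 19.6. ZFYVE28, a FYVE-domain protein, had the highest value of any exonic region in replicate 2, with 11.4 and 32.1 at chr4:2331564-2332578. It was exonic in 1 of the 6 transcripts over its summit, a short form not marked as canonical, and its window held both the forkhead and the AP-1 word.

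The remaining 3′ UTR regions of the 20 follow. KLF6, a zinc finger transcription factor of the Krüppel-like family, had 14.5 and 28.7 at chr10:3818065-3819076, on 144 and 253 reads. CDC5L, a component of the spliceosome, had 12.4 and 22.8 at chr6:44414226-44414961, with the summit 112 bp past its stop codon. BNC2, a zinc finger protein, had 9.08 and 12.3, with the replicates closer together. DDX60, a helicase of the antiviral response, had 12.8 and 25.5 in an exon that 1 of 4 transcripts contains. ZFAND5, a zinc finger protein linked to the proteasome, had 8.23 and 28.8, the largest ratio between replicates among the 20. LRRK1, a leucine-rich repeat kinase, had 7.94 and 9.96. SEC22B, a SNARE protein of transport between endoplasmic reticulum and Golgi, had 8.44 and 11.8. The local background there was 3.73 and 4.20 times the median of shared regions, and no other exonic region exceeded 3 times in both replicates. SEC22B has near-identical copies in the genome, so reads there could be placed uncertainly, which was not tested.

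Among the coding regions of the 20, RBM44, an RNA-binding protein, had 14.2 in replicate 1 and 20.7 in replicate 2 at chr2:238726525-238727254, in exon 3 of 16. None of the 3 words was at its summit. CRYBG3, with a crystallin-like domain, had 9.34 and 22.1 in exon 4 of 22, and its window likewise held none. CCDC93, which acts in endosomal sorting, had 8.71 and 15.7 in exon 12 of 24, also without a word. HECTD2, a HECT-domain protein of the ubiquitin ligase class, had 9.54 and 15.0 in exon 14 of 21 and carried the forkhead word 2 bp from the summit. USO1, a vesicle tether of the Golgi, had 9.10 and 14.3 in exon 15 of 22 and held the AP-1 word 6 bp from the summit. BMERB1 had 10.7 and 14.4, and its forkhead word crossed from the coding sequence into the 3′ UTR of the same exon. The 5′ UTR regions were led by ENSG00000285471, a gene without a symbol, with 7.82 and 21.9. NPY4R, a receptor for pancreatic polypeptide, followed with 5.76 and 14.8, and reads there could be shared with its near-identical copy NPY4R2. ZCCHC9 had 3.71 and 10.1, BTBD2 4.37 and 5.92, and KCTD2 2.86 and 4.01.

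**Figure D2:**
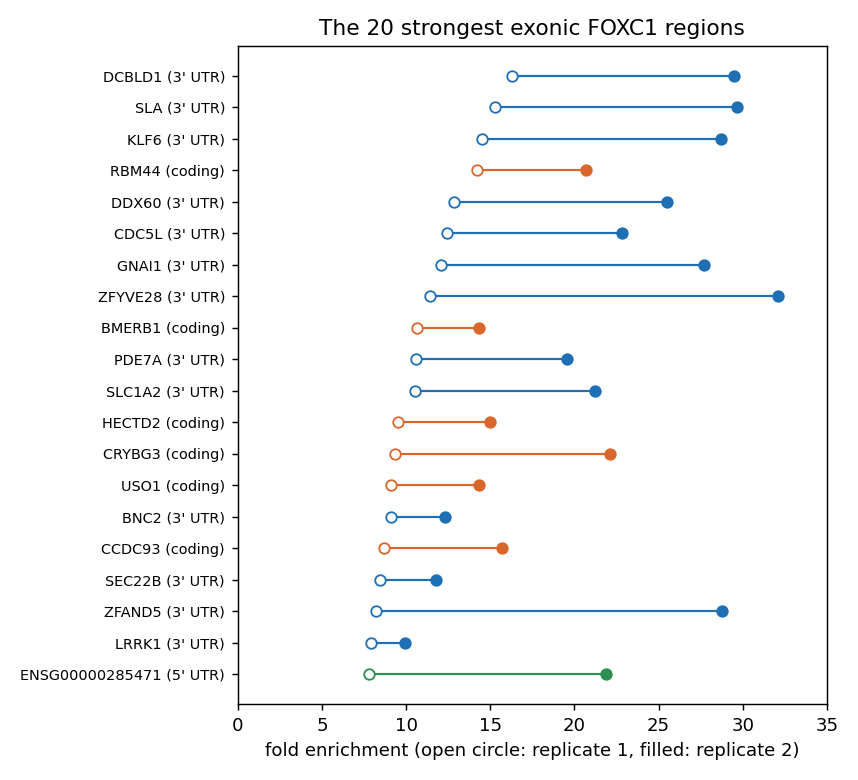
Fold enrichment (horizontal axis, linear scale) of the 20 exonic regions with the highest lower value, by gene and exon class, with replicate 1 as an open circle and replicate 2 as a filled one. Every filled circle lies to the right of its open one, from LRRK1 with 7.94 and 9.96 to ZFAND5 with 8.23 and 28.8.

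The density of summits differed between exon classes. Coding sequence over 2 kb from start sites held 2.60 shared summits per megabase (95% exact Poisson interval 1.92 to 3.45), compared with 4.64 in introns (4.52 to 4.75), and the intervals did not overlap. The 3′ UTRs held 4.78 per megabase (4.05 to 5.60), which overlapped the intronic interval. In 5′ UTRs the 7 summits gave 11.3 per megabase (4.53 to 23.2), a wide interval that also reached the intronic value. Over coding sequence and UTRs together the density was 4.07 (3.54 to 4.66). Exonic bases were 2.08% of all bases over 2 kb from start sites, and exonic regions were 1.97% of the 10575 shared regions there. Mappability and base composition differ between these classes, and their part in the densities was not tested. Coding windows averaged 49.0% GC, 3′ UTR windows 41.4% and intronic windows 40.3%.

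**Figure D3:**
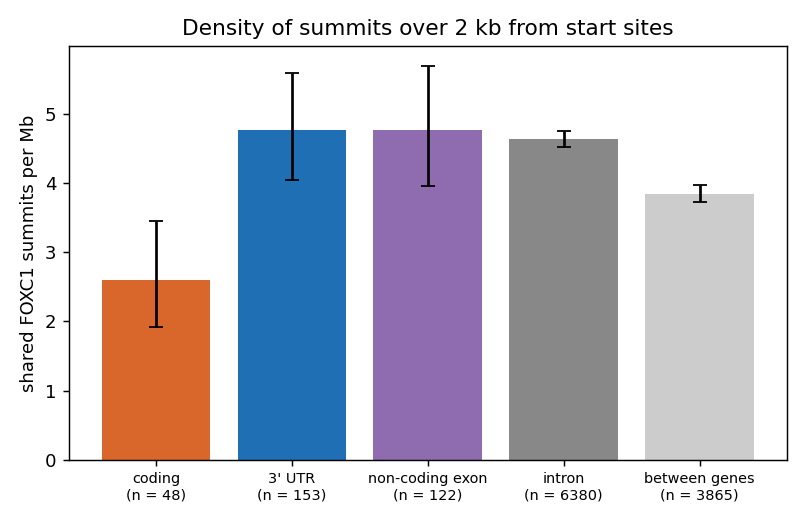
Shared FOXC1 summits per megabase of sequence (vertical axis) over 2 kb from start sites in coding sequence, 3′ UTRs, non-coding exons, introns and between genes, with 95% exact Poisson intervals as error bars and the number of summits under each bar. The coding bar stands at 2.60 against 4.64 for introns, and the 7 summits of 5′ UTRs are not drawn.

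The forkhead word marked exonic summits as often as intronic ones. It lay within 50 bp of 100 of the 208 exonic summits (48.1%, 95% Wilson interval 41.4 to 54.8%), against 48.6% of all shared regions and 10.6% of windows 500 bp downstream of the exonic summits. The share at intronic summits was 48.4%, and the difference was −0.31 percentage points (95% Newcombe interval −7.11 to 6.56). An interval this wide leaves room for differences of several points. Where the word was present it sat close to the summit, with its middle at a median of 10 bp from the summit and at most 25 bp away in 85 of the 100. In 80 regions the whole word lay within 25 bp. Its forms were GTAAACA in 48, ATAAACA in 32, ATAAATA in 11 and GTAAATA in 9, counting the match nearest to the summit. Regions that met the q limit in both replicates held it in 49 of 102 (48.0%), and the remaining regions in 51 of 106 (48.1%). At intronic regions these shares were 51.1% and 45.5%.

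The exon classes differed in how often they held it. In 3′ UTRs 81 of 153 summits had the forkhead word (52.9%, 45.1 to 60.7%), and in coding sequence 17 of 48 did (35.4%, 23.4 to 49.6%), a difference of 17.5 points (interval 1.33 to 31.8). With peaks held to the q limit the difference was 12.9 points and its interval included 0 (−9.19 to 32.5). Windows of 101 bp tiled along 3′ UTRs held the word in 11.5% of cases and windows along coding sequence in 4.68%. Windows 500 bp downstream of the summits held it in 11.1% of 3′ UTR regions and 10.4% of coding regions. Downstream here follows the chromosome coordinate, not the gene strand. Most exons under coding summits were shorter than 500 bp (upper quartile 295.5 bp), so most of these coding control windows were centred outside the exon. The 10.4% is therefore no background of coding sequence. The part of the underlying sequence in the difference was not tested. For the form GTAAACA the 3′ UTR share was 28.1%, against 12.5% in coding sequence and 19.6% in introns. The 3′ UTR share exceeded the intronic one by 8.50 points (interval 1.90 to 16.1). The difference was 3.82 points, with an interval that included 0, when the summit of replicate 2 was used alone. These were among 20 differences of shares computed, chosen with the values in view, and the intervals are not adjusted for their number.

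**Figure D4:**
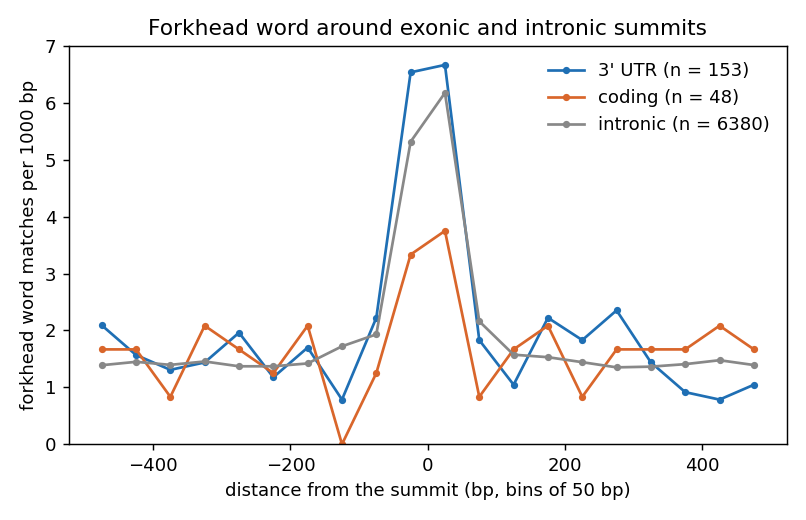
Matches of the forkhead word per 1000 bp (vertical axis) in bins of 50 bp by distance from the summit (horizontal axis, bp) for 153 3′ UTR (blue), 48 coding (orange) and 6380 intronic (grey) regions. All lines peak in the bins next to the summit, with the coding line the lowest there, and no error bars are drawn.

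The AP-1 word and the extended element were scarcer in 3′ UTRs than in introns. The AP-1 word lay at 25 of the 208 exonic summits (12.02%, 8.28 to 17.1%), against 16.6% of all shared regions. In 3′ UTRs it was at 9.80% of summits and in introns at 17.1%, a difference of −7.28 points (interval −11.2 to −1.47). In coding sequence it was at 9 of 48 (18.8%), and the 3′ UTR share minus the coding one was −8.95 points (interval −22.7 to 1.36). Exonic minus intronic summits gave −5.07 points (−8.93 to 0.135). These last 2 intervals included 0. Shared promoter regions also had a low share of the AP-1 word (12.1%). The extended element lay at 10 exonic summits (4.81%), against 7.24% of all shared regions. For this element exonic minus intronic summits gave −2.87 points (−5.15 to 0.993), an interval that included 0. By class it was at 3 of 153 3′ UTR summits (1.96%) and 5 of 48 coding summits (10.4%), compared with 7.68% in introns. The 3′ UTR share minus the intronic one was −5.72 points (interval −7.18 to −2.02), and minus the coding one it was −8.46 (−20.3 to −1.53), from few regions. With basic transcripts the intervals of both differences of the extended element included 0. For the AP-1 word the interval included 0 with the summits of replicate 1 alone, at −4.53 points, and under the q limit, at −7.61 points. The forkhead and AP-1 words occurred together at 12 exonic summits (5.77%), against 7.33% of all shared regions. None of the 3 words was at 88 exonic summits (42.3%, 35.8 to 49.1%), against 38.3% of all shared regions, so this share was near the background. The extended element was found with the forkhead word at 3 exonic summits, and that share was not computed over all shared regions.

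**Figure D5:**
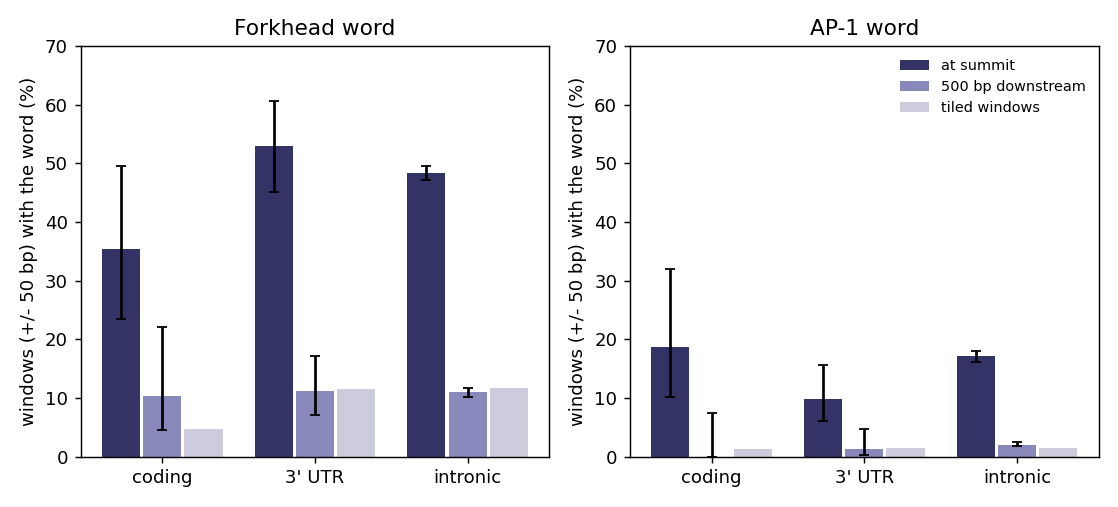
Share of 101-bp windows (vertical axis, %) holding the forkhead word (left) or the AP-1 word (right) at the summit, 500 bp downstream of it, and in windows tiled along each class, for coding, 3′ UTR and intronic regions, with 95% Wilson intervals on the summit and downstream bars. The forkhead word is at 35.4% of coding and 52.9% of 3′ UTR summits, and the AP-1 word at 18.8% and 9.80%.

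Words at coding summits were mostly part of the coding sequence itself. Of the 17 forkhead words 13 lay wholly in it, 2 lay in an intron and 2 ran over the end of the coding sequence into the 3′ UTR. These last were in BMERB1 and AMHR2, and in both the TAA within the word was the stop codon of the annotated transcript. For 12 of them the codon frame could be read from the listed transcript. On the gene strand the first base of the word was at codon position 1 in 1 case, position 2 in 4 and position 3 in 0, the last of which would put the stop codon TAA in frame. On the opposite strand the counts were 3, 2 and 2. In 3′ UTRs 78 of 81 words lay wholly in the UTR. There the word ran along the gene strand in 29 of 81 (35.8%, 26.2 to 46.7%), compared with 46.0% of the words in tiled 3′ UTR windows.

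Coding summits sat in small exons. The exon under a coding summit had a median length of 160.5 bp, the summit lay a median of 51.5 bp from its edge, and only 4 of the 48 regions lay wholly within it. A coding summit therefore marks a region that also covers intron. In 3′ UTRs 149 of 153 summits were in the last exon and 114 of 153 regions lay wholly in it. The 3′ UTRs had a median length of 3543 bp, and summits lay a median of 1526 bp past the stop codon and 1472 bp from the 3′ end. When each 3′ UTR was cut into 3 equal parts, 45 summits fell in the part nearest the stop codon, 47 in the middle and 61 in the part nearest the 3′ end. The distance to the nearest start site had a median of 6508.5 bp over all exonic regions, and that start belonged to the same gene in 116 of 208. The summit was exonic in all transcripts over it in 124 of 208 regions, and in the canonical transcript in 176. GC content within 50 bp of the summit had a median of 40.6% for exonic regions, 44.1% for coding and 38.6% for 3′ UTR and intronic ones.

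The 208 regions fell in 203 genes. Of these genes 41 (20.2%) also had a shared promoter region, 78 (38.4%) a shared intronic region and 107 (52.7%) neither. Of all protein-coding genes 14.2% had a shared intronic region, and gene length was not taken into account. The shares with a promoter region and with neither were not computed over all genes. AVL9, CNKSR3, KLF6, PTGER2 and SLC16A10 had 2 exonic regions each, all in 3′ UTRs, and no gene had more. In KLF6 the summits were 631 bp apart, and the second region had fold enrichments of 3.13 and 4.15 beside the 14.5 and 28.7 of the first. PTGER2, a receptor for prostaglandin E2, had 4.82 and 14.0 at one and 3.22 and 3.29 at the other, 737 bp apart. CNKSR3, a scaffold protein, had 5.64 and 9.15 at one and 5.50 and 9.57 at the other, 17709 bp apart, so its regions were nearly equal in strength.

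A few further regions outside the naming rule were picked by hand after their values were seen, and they stand for no group. PPARG, a nuclear receptor of fat and urothelial cells, had 6.30 in replicate 1 and 18.7 in replicate 2, in an exon that 2 of 26 transcripts use as UTR. OCLN, a tight junction protein, had 6.58 and 12.3 in an exon of 1 of 11 transcripts. DCN, a matrix proteoglycan, had 7.13 and 15.0. TRAPPC8, a vesicle tethering protein, went the other way between replicates, with 11.6 in replicate 1 and 7.32 in replicate 2.

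Forkhead genes themselves had 3 exonic regions, among the 53 forkhead genes of the annotation (5.66%), against 1.03% of the 20090 protein-coding genes. With only 3 regions this share is uncertain, and exon length was not taken into account. FOXC1, the factor precipitated, had a weak one in its 3′ UTR at chr6:1613664-1614089, with 2.74 in replicate 1 and 2.02 in replicate 2 on 19 and 28 reads. It ranked 205 of the 208 and did not meet the q limit in either replicate. A GTAAATA lay 15 bp from its summit. FOXN2 had 4.07 and 6.80 in coding sequence, with no word, and met the q limit in both replicates. FOXB1 had 3.17 and 6.11 in its 3′ UTR, with GTAAACA at the summit itself, and met the q limit in replicate 2 alone.

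Apart from the 509 ZNF zinc finger genes, the other gene lists were too small, at the 1.03% of all protein-coding genes, to hold more than a few exonic regions. Of 67 chromatin regulators 1 (1.49%) had an exonic region, HDAC9, a histone deacetylase, with 4.25 and 7.12. Of 57 genes of extracellular matrix and adhesion 1 (1.75%) did, LAMA5, a laminin chain, with 3.38 and 3.25. Among 45 ABC transporters it was 1 (2.22%), ABCB11, the bile salt export pump, with 2.91 and 3.66. Among the 509 ZNF genes it was 1 (0.196%), ZNF19, with 2.61 and 3.11. That share was below the 1.03% of all protein-coding genes, which was not tested, and exon length was not taken into account. None of 45 genes that repair platinum lesions, 38 receptor kinases and growth signalling genes, 65 protocadherins and 17 mucins had an exonic region, and at 1.03% each of these lists would hold fewer than 1 on average, so the zeros are near the background. Intronic regions were found in 19 of the 67 chromatin regulators (28.4%), 27 of the 57 matrix genes (47.4%) and 4 of the 45 repair genes (8.89%), beside 14.2% of all protein-coding genes. Long genes have more intron to hold a region, and gene length was not taken into account.

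The regions beside the 2 kb limit had values within the range of the rest. MTHFD1, an enzyme of folate metabolism, was the exonic region nearest to the limit, at 2002 bp from a start site, with 2.91 and 5.13, and ITPRIP at 2053 bp with 3.68 and 7.07. Exonic summits just under the limit, and so not counted, were those of ENOSF1 at 1965 bp with 3.98 and 5.29 and TMEM245 at 1946 bp with 6.14 and 11.4.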

How the data were processed

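FOXC1 ChIP-seq peak lists of 2 J82 replicates were analysed. The files of the input libraries were not analysed here. Per the submitters' processing notes, reads were mapped to hg19 with BWA and peaks were called with MACS2 2.2.7.1. There was 1 list per ChIP replicate, and no pooled list was analysed here. The score deposited by the authors is 10 times the −log10 p, truncated. The fold enrichment deposited by the authors is a ratio of pileup to local background, and the −log10 p and −log10 q deposited by the authors compare that pileup with the same background. How the lists were filtered is not given in the sources used here. The lowest −log10 p on chromosomes 1 to 22 and X was 2.00 in replicate 1 and 2.02 in replicate 2, so weak peaks are included. The study called its reproducible FOXC1 peaks with the IDR tool, which was not applied here. The shared regions are therefore not the study's set of FOXC1 binding sites.

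Exons came from GENCODE version 44 mapped to GRCh37, while the study used version 19. Coding sequence took priority over 3′ UTR, 5′ UTR and non-coding exon. Non-coding exons (122 regions) were kept apart. Reads were solved from fold enrichment and −log10 p to within 0.001, for 100% of peaks. Each read was taken to add 1 to the pileup in replicate 1 and 0.9041 in replicate 2. These scales were inferred as those that solved most of a slice of the peaks, so the 100% follows in part from that choice. Words were searched in 101-bp windows of the GRCh37 genome. Control windows lay 500 bp downstream by chromosome coordinate, whatever the gene strand, and could fall outside the class of the summit. Tiled windows covered each class. Shares carry Wilson intervals, differences Newcombe intervals and densities exact Poisson intervals, all 95%. They cover counting of regions only, and neighbouring regions are not independent. With 1 list per replicate and no second condition, no test between groups was possible.

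Regions were named as the 20 with the highest lower fold enrichment, the 5 highest of each exon class, those in the gene lists, genes with 3 or more, the 2 on either side of the 2 kb limit and the 5 strongest with each kind of word. Members, lists and this rule were chosen with earlier results of these data known. The code was tested on simulated peaks and genes. Python 3.11.15, numpy 2.4.6, pandas 2.3.3, scipy 1.17.1 and matplotlib 3.10.9 were used. The samples were grouped as FOXC1 ChIP and input by their titles.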

Additional observations from a re-analysis of the deposited data

How the results depend on the processing

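No paired analysis was possible because the input libraries that share the replicate numbers were not analysed here and the ChIP replicates had no second condition. The number of exonic regions was 208, and it became 330 with exons of any transcript, 138 over 5 kb from start sites and 102 with peaks of −log10 q of at least 5. The mean of the median fold enrichments became 7.47 under that q limit. The share with the forkhead word became 38.5% with the whole word within 25 bp, 57.2% within 100 bp, 24.5% for GTAAACA and 58.7% for RYMAACA (M is A or C). The difference from introns turned positive with exons of any transcript (0.71 points), within 25 bp (4.14), for GTAAACA (4.91) and for RYMAACA (4.89), with 0 inside each interval. The GC difference of 1.98 points became 0.980 within 25 bp and 0.995 within 100 bp.

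Alternatives added after the data were seen ended some calls, in that the interval came to include 0. Under the q limit this held for the 3′ UTR minus coding difference of the forkhead word (12.9 points), of GTAAACA (15.2) and of the extended element (−6.30), and for the 3′ UTR minus intron difference of the AP-1 word (−7.61). With basic transcripts it held for the extended element, at −3.36 points against introns and −4.71 against coding sequence. With the summit of 1 replicate it held for the AP-1 difference (−4.53 at replicate 1) and for GTAAACA at replicate 2 (3.82 against introns, 12.01 against coding sequence). Leaving out either replicate gave 3.67 to 6.10 for the median fold enrichment. The exonic share of the 500 strongest regions ran from 0.200% to 1% with either replicate alone. Of the 86 values computed, 63 kept their call or stayed within their spread. The causes were not tested. Fewer regions remain under the q limit.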

Other observations

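Non-coding exons held 122 shared regions over 2 kb from start sites, at 4.77 per megabase (95% exact Poisson interval 3.96 to 5.70), which overlapped the density in introns. The median fold enrichment there was 3.67 in replicate 1 and 6.69 in replicate 2. The forkhead word lay at 62 of them (50.8%), the AP-1 word at 23 (18.9%) and the extended element at 13 (10.7%).

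With promoter regions counted in the totals, peaks found in 1 replicate alone were exonic more often than shared ones, with intervals that did not overlap. In replicate 1 alone 246 of 9048 regions were exonic (2.72%, 95% Wilson interval 2.40 to 3.07%), and in replicate 2 alone 561 of 28496 (1.97%, 1.81 to 2.14%), compared with 1.57% of shared regions (1.37 to 1.80%). Promoter regions cannot be exonic by the rule used, and they were 20.1% of shared regions. Without them the exonic share of shared regions was 1.97%. The promoter share of peaks in 1 replicate is not given here, so its part in these differences was not tested. The exonic regions of 1 replicate had median fold enrichments of 2.61 and 3.06. The share of shared regions that were exonic ranged from 0% on chromosome 22 (0 of 120) to 3.41% on chromosome 16 (10 of 293).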
